A study of Mus musculus with 40 samples.

Results

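Genes of sterol and fatty acid synthesis, with the genes that control them through SREBP and LXR, were followed across 40 microarrays of a mouse plasmacytoma line that carried an empty vector or 1 of 5 PAX5 constructs. The list named 35 genes, and a probe set had to be annotated with exactly 1 of those symbols to count. By that rule 29 of the 35 genes were measured, among 17097 genes measured in all, and each gene was read from its brightest probe set on average. Pmvk, Srebf1, Acat2, Scd2, Abca1 and Nr1h2 were not analysed here. No filter on low values was applied, so all 29 genes were tested.

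The cells were J558LuM, a mouse plasma cell tumour line, and each array held total RNA of 1 transduction. The constructs were wild-type PAX5 (PAX5-WT, n = 7), PAX5-G183S (n = 7), PAX5-G183V (n = 7), PAX5-P80R (n = 6) and PAX5-Δ2-6 (n = 6), and the empty vector was MIR (n = 7). PAX5 is the transcription factor that keeps B cell identity and is switched off when B cells become plasma cells. PAX5-G183S and PAX5-G183V carry substitutions in the octapeptide, a motif that binds co-repressors, PAX5-P80R carries one in the DNA-binding paired domain, and PAX5-Δ2-6 is given by its name only. The comparisons ask what each construct does to these genes relative to MIR, to PAX5-WT and, for PAX5-P80R and PAX5-G183V, to PAX5-Δ2-6. All groups share 1 line and its endogenous genes, and nothing in the labels says how much of each PAX5 protein was made, so p-values cover only how cultures of that line, transduced separately, varied.

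Cholesterol is built from acetyl-CoA through mevalonate, farnesyl diphosphate, squalene and lanosterol, and most of these enzymes are switched together. When sterol in the endoplasmic reticulum is low, the escort protein SCAP carries SREBP to the Golgi, where it is cut and freed to turn on the enzyme genes. When sterol is high, INSIG proteins hold SCAP back, and LXR turns on the exporters ABCA1 and ABCG1. Plasma cells, which secrete antibody, keep a large endoplasmic reticulum and need lipid to build it.

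The promoters of the genes that the comparisons turn on are shown because SREBP acts beside the partner factors NF-Y, which reads CCAAT, and SP1, which reads GGGCGG. Each window holds the 250 bases before the annotated start, from RefSeq on build GRCm38.p6, with CCAAT and GGGCGG in capitals on either strand (ATTGG and CCGCCC on the other). They are Cyp51 at chr5:4104698-4104947 (minus strand), Sc5d at chr9:42264301-42264550 (minus strand), Ebp at chrX:8193513-8193762 (minus strand) and the first of 2 windows of Scap at chr9:110333038-110333287 (plus strand).
Cyp51: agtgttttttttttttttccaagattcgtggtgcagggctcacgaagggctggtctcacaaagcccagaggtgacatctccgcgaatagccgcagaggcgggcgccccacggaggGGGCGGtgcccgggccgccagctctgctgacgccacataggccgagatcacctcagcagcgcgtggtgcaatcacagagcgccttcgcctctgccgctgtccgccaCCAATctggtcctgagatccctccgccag
Sc5d: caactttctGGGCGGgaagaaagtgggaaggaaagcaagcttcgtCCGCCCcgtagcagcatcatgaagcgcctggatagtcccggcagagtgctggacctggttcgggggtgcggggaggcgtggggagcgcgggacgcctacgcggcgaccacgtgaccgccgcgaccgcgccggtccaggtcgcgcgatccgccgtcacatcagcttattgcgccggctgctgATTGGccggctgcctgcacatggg
Ebp: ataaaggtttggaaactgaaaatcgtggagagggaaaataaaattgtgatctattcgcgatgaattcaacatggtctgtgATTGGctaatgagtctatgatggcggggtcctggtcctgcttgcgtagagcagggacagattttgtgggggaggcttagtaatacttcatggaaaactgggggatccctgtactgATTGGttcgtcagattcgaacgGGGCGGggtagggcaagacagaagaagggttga
Scap: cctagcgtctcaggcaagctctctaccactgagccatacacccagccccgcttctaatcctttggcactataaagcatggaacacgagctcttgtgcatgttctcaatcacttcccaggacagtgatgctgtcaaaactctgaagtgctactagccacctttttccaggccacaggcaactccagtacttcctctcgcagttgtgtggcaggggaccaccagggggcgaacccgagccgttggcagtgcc
The CCAAT nearest the start ended 24 bases before it in Cyp51, 19 in Sc5d and 50 in Ebp, and the printed window of Scap held neither motif.

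Of the 29 measured genes 23 had such a window. CCAAT was in the window of 18 of those 23 (78.3%), against 37.5% of 27025 genes, and GGGCGG in that of 19 (82.6%), against 35.4%. The 27025 are all genes with a window, measured here or not, and were not matched to the 23 for signal. Scap counted for GGGCGG through its other window. The E-box CACGTG was in 5 windows (21.7% against 6.86%), the sterol response element TCACNCCAC in 1, that of Hmgcs1 (4.35% against 1.22%), and GCGTGAC in 0 (against 2.07%). Both strands were searched, and none of the motifs contains another. A match describes these letters in this window and is not a binding site.

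The values are log2 RMA signals, and a difference of 1 would be a doubling. Array medians lay between 4.21 and 4.27, and 24 of the 29 genes averaged above the median of gene means (4.77). Hmgcs1, Lss, Scd1, Nr1h3 and Mylip lay below it. The plasma cell genes Xbp1 and Jchain averaged 13.2 and 12.4, no fibroblast marker averaged above 3.91, and of the macrophage markers Cd68 was high at 10.5. In bulk RNA, fewer cells of a type and less RNA per cell cannot be told apart. The labels give 2 RNA isolation batches and 2 plates. All PAX5-P80R and PAX5-Δ2-6 arrays lie on plate 2, so their comparisons with MIR and PAX5-WT rest on a plate effect taken as equal in all groups, while the other groups have 4 arrays on plate 1 and 3 on plate 2. Each difference below is a limma estimate ± its standard error from all 40 arrays with terms for both. A gene was called at a limma adjusted p under 0.05 over all 17097 genes.

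The transduction numbers also split the groups. MIR, PAX5-WT and PAX5-G183S arrays have numbers from 34 to 44 or from 58 to 66, except for 1 PAX5-G183S array (replicate 4, number 45), while arrays of PAX5-P80R, PAX5-Δ2-6 and PAX5-G183V have numbers from 1 to 9 or from 46 to 57. Comparisons of the second set with MIR or PAX5-WT therefore cross the number series, and for them construct and series are told apart by that 1 array alone. The 5 comparisons with MIR share the same 7 MIR arrays. Comparisons of PAX5-WT or PAX5-G183S with MIR, and of PAX5-P80R or PAX5-G183V with PAX5-Δ2-6, stay within a series set.

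A few genes of late sterol synthesis were lower with PAX5-WT than with the empty vector, by 1.14- to 1.21-fold. Of the 11 measured squalene and sterol enzymes 3 fell with PAX5-WT, 0 rose and 8 did not pass. The 3 were Cyp51, which removes a methyl group from lanosterol, Sc5d, which puts in a double bond near the end of the path, and Ebp, the isomerase before it. All 11 differences were below 0, with a median of -0.15, against 0.01 over all genes. Against the same 7 MIR arrays 9 lay below 0 with PAX5-G183S, 8 with PAX5-G183V, 9 with PAX5-P80R and 10 with PAX5-Δ2-6. The medians of the 11 with PAX5-P80R and PAX5-Δ2-6 were -0.16 and -0.08. Over all 29 genes 2 rose and 3 fell with PAX5-WT, where 3.59% of all genes rose and 2.84% fell (6.43% called either way). The median difference of the 29 was -0.04. Of the 5 measured mevalonate enzymes 0 were called, with 3 differences above 0, 2 below and a median of 0.02.

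Cyp51 was at 8.45, 8.84 and 9.07 in PAX5-WT arrays (lowest, median, highest) and at 8.80, 9.17 and 9.25 in MIR arrays. The groups overlapped, and the lowest MIR arrays were those of isolation batch 2. With the batch in the fit Cyp51 fell by 0.27 ± 0.04 with PAX5-WT (1.21-fold, limma adjusted p = 4.57e-05), with -0.29 within isolation batch 1 and -0.25 within batch 2. The second Cyp51 probe set, with a mean of 6.96, differed by -0.26 ± 0.10, and a dim one, with a mean of 4.04, by 0.10 ± 0.08.

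Sc5d was at 8.93, 9.14 and 9.25 in PAX5-WT arrays and at 9.07, 9.36 and 9.60 in MIR arrays. It fell by 0.26 ± 0.05 with PAX5-WT (limma adjusted p = 0.000373), with -0.32 and -0.17 within isolation batches 1 and 2. Its other 2 probe sets were dim, with means of 3.82 and 4.38, and differed by -0.13 ± 0.08 and 0.01 ± 0.13. Ebp was at 8.55, 8.60 and 8.81 in PAX5-WT arrays and at 8.66, 8.80 and 8.98 in MIR arrays. It fell by 0.18 ± 0.05 (limma adjusted p = 0.0143), with -0.15 and -0.22 within the batches. For Cyp51, Sc5d and Ebp no single array left out ended the call. With the mean of all probe sets as the gene's value Cyp51 differed by -0.14 and Sc5d by -0.13 and neither passed (limma adjusted p = 0.0788 and 0.313), and with no batch terms Cyp51 and Ebp did not pass (0.194 and 0.126).

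**Figure D1:**
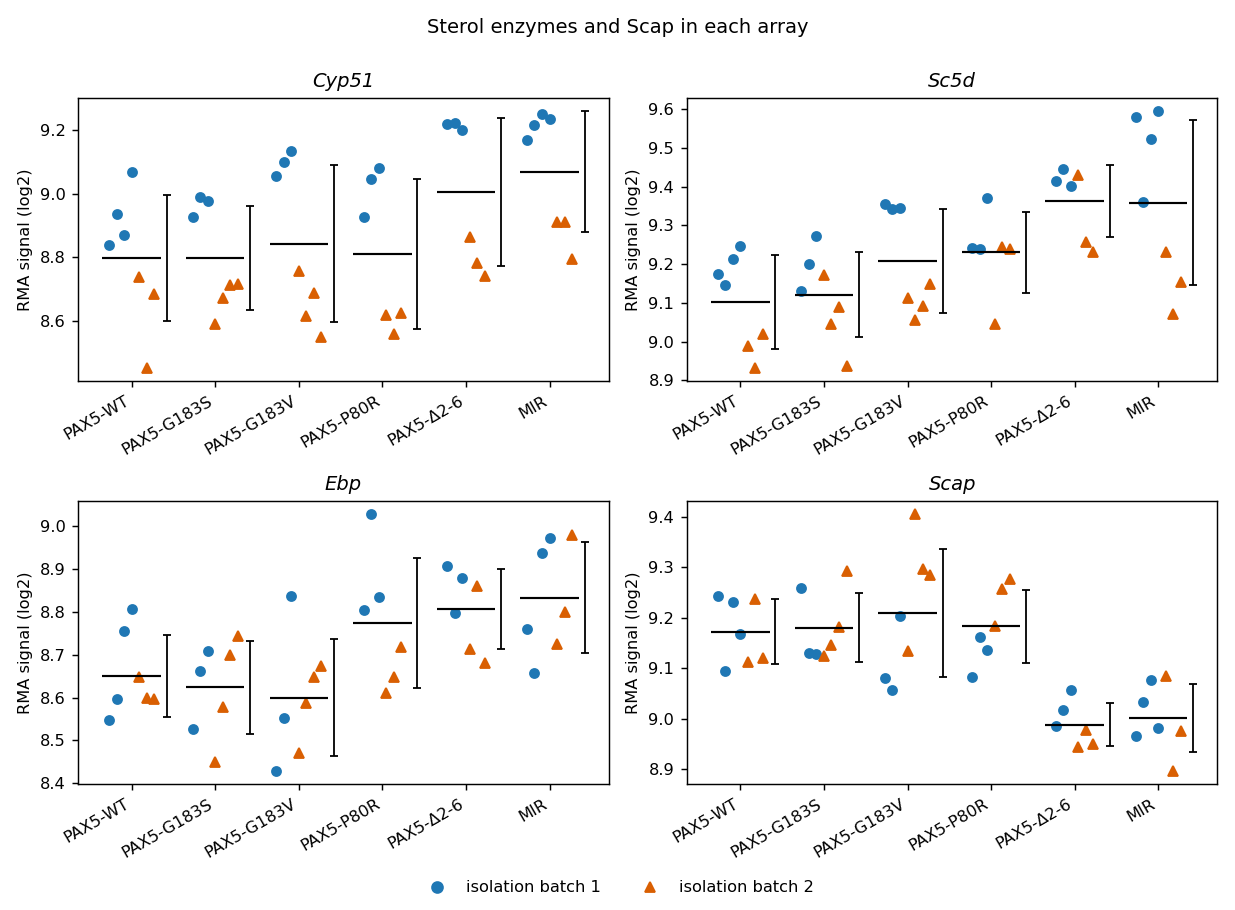
RMA signal (log2) of Cyp51, Sc5d, Ebp and Scap in every array, by construct, with circles for isolation batch 1 and triangles for batch 2; lines are group means and bars are 1 SD (n = 6 or 7). Cyp51 sits lower in batch 2 than in batch 1 in each group, and every PAX5-WT array of Scap lies above every MIR array.

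With PAX5-G183S the same 3 enzymes fell. Over the 29 genes 1 rose and 3 fell, where 3.69% of all genes rose and 2.43% fell (6.12% either way). Cyp51 was at 8.59, 8.72 and 8.99 in PAX5-G183S arrays and fell by 0.22 ± 0.04 (limma adjusted p = 0.00102). Sc5d was at 8.94, 9.13 and 9.27 and fell by 0.21 ± 0.05 (limma adjusted p = 0.00428), and Ebp was at 8.45, 8.66 and 8.74 and fell by 0.20 ± 0.05 (limma adjusted p = 0.0066). The 3 differences were -0.24, -0.30 and -0.16 within isolation batch 1 and -0.20, -0.09 and -0.24 within batch 2, in that order of genes. The median of the 11 enzymes was -0.11 with PAX5-G183S. With the mean of all probe sets Cyp51 differed by -0.13 and Sc5d by -0.08 and neither passed (limma adjusted p = 0.129 and 0.582). With no batch terms none of the 3 passed (0.179 for Cyp51, 0.0534 for Sc5d and 0.0614 for Ebp).

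With PAX5-G183V 6 of the 29 genes fell and 1 rose relative to MIR, where 3.64% of all genes fell and 5.63% rose (9.28% either way). The comparison crosses the transduction series, and with a term for 4 series all 7 calls were lost, while 123 of all genes were called, in place of 1586. The 11 squalene and sterol enzymes had a median of -0.17, and 4 of them fell. Besides Cyp51 (-0.17 ± 0.04, limma adjusted p = 0.00887) and Ebp (-0.22 ± 0.05, limma adjusted p = 0.0017), the genes that fell were Lss, Nsdhl, Insig1 and Abcg1. Sc5d differed by -0.12 ± 0.05 and did not pass (limma adjusted p = 0.112). With the mean of all probe sets Cyp51 differed by -0.12 and did not pass (limma adjusted p = 0.136), nor did it with no batch terms (0.233).

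Nsdhl, a dehydrogenase that acts after Cyp51, was at 9.17, 9.34 and 9.78 in PAX5-G183V arrays and at 9.58, 9.69 and 9.91 in MIR arrays. It fell by 0.23 ± 0.05 (1.17-fold, limma adjusted p = 0.00297). Lss, which closes the rings to make lanosterol, was at 3.54, 4.12 and 4.72 in PAX5-G183V arrays and at 4.21, 4.59 and 4.80 in MIR arrays. It fell by 0.39 ± 0.12 (limma adjusted p = 0.0326), from a probe set below the median of gene means, and 7 of 14 single arrays left out ended that call (highest adjusted p 0.125, without MIR replicate 6). Abcg1, which exports cholesterol and is an LXR target, was at 9.25, 9.38 and 9.44 in PAX5-G183V arrays and at 9.40, 9.54 and 9.79 in MIR arrays. It fell by 0.28 ± 0.06 (limma adjusted p = 0.00177), and its second probe set, with a mean of 5.83, differed by -0.19 ± 0.10.

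These PAX5-G183V differences stood mainly in 1 isolation batch. Within batch 2 the values were -0.67 for Lss, -0.37 for Nsdhl, -0.47 for Insig1 and -0.47 for Abcg1, and within batch 1 they were -0.11, -0.08, -0.11 and -0.10. In batch 2 alone 8 of the 29 genes were called for PAX5-G183V against MIR, where 1396 of 17097 genes were, and in batch 1 alone 0, where 302 were. The difference between the batches was not tested. In MIR arrays Abcg1 was itself higher in batch 2, at 9.76 to 9.79 in 3 arrays, against 9.40 to 9.54 in 4 arrays of batch 1.

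With PAX5-P80R 2 of the 29 genes fell and 0 rose relative to MIR, where 2.47% of all genes fell and 2.25% rose (4.72% either way). Cyp51 was at 8.56, 8.78 and 9.08 in PAX5-P80R arrays and fell by 0.25 ± 0.05 (limma adjusted p = 0.00152), with -0.23 and -0.27 within isolation batches 1 and 2. Fdft1, the squalene synthase, was at 8.75, 8.90 and 9.15 in PAX5-P80R arrays and at 8.94, 9.19 and 9.34 in MIR arrays. It fell by 0.23 ± 0.07 (limma adjusted p = 0.0452), and 11 of 13 single arrays left out ended the call (highest adjusted p 0.139, without MIR replicate 3). Both calls were lost with the replicate number as a block (limma adjusted p = 0.107 for Cyp51 and 0.178 for Fdft1). The call of Cyp51 was lost with no batch terms as well (0.266). The comparison crosses the series, and with a term for 4 series both were lost too (0.636 and 0.718).

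With PAX5-Δ2-6 none of the 29 genes was called against MIR, and none of all genes was either (0%). At an unadjusted limma p under 0.05 there were 5 of the 29 and 1308 of all genes. Cyp51 was at 8.74, 9.03 and 9.22 in PAX5-Δ2-6 arrays and differed from MIR by -0.05 ± 0.05, with a 95% interval of -0.15 to 0.05. Sc5d was at 9.23, 9.41 and 9.44, with an interval of -0.11 to 0.11, and Ebp at 8.68, 8.83 and 8.91, with an interval of -0.23 to -0.02. The mean of Ebp was 8.81 with PAX5-Δ2-6 and 8.83 with MIR. All PAX5-Δ2-6 arrays lie on plate 2, where the fit puts Ebp higher by 0.18 ± 0.03.

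**Figure D2:**
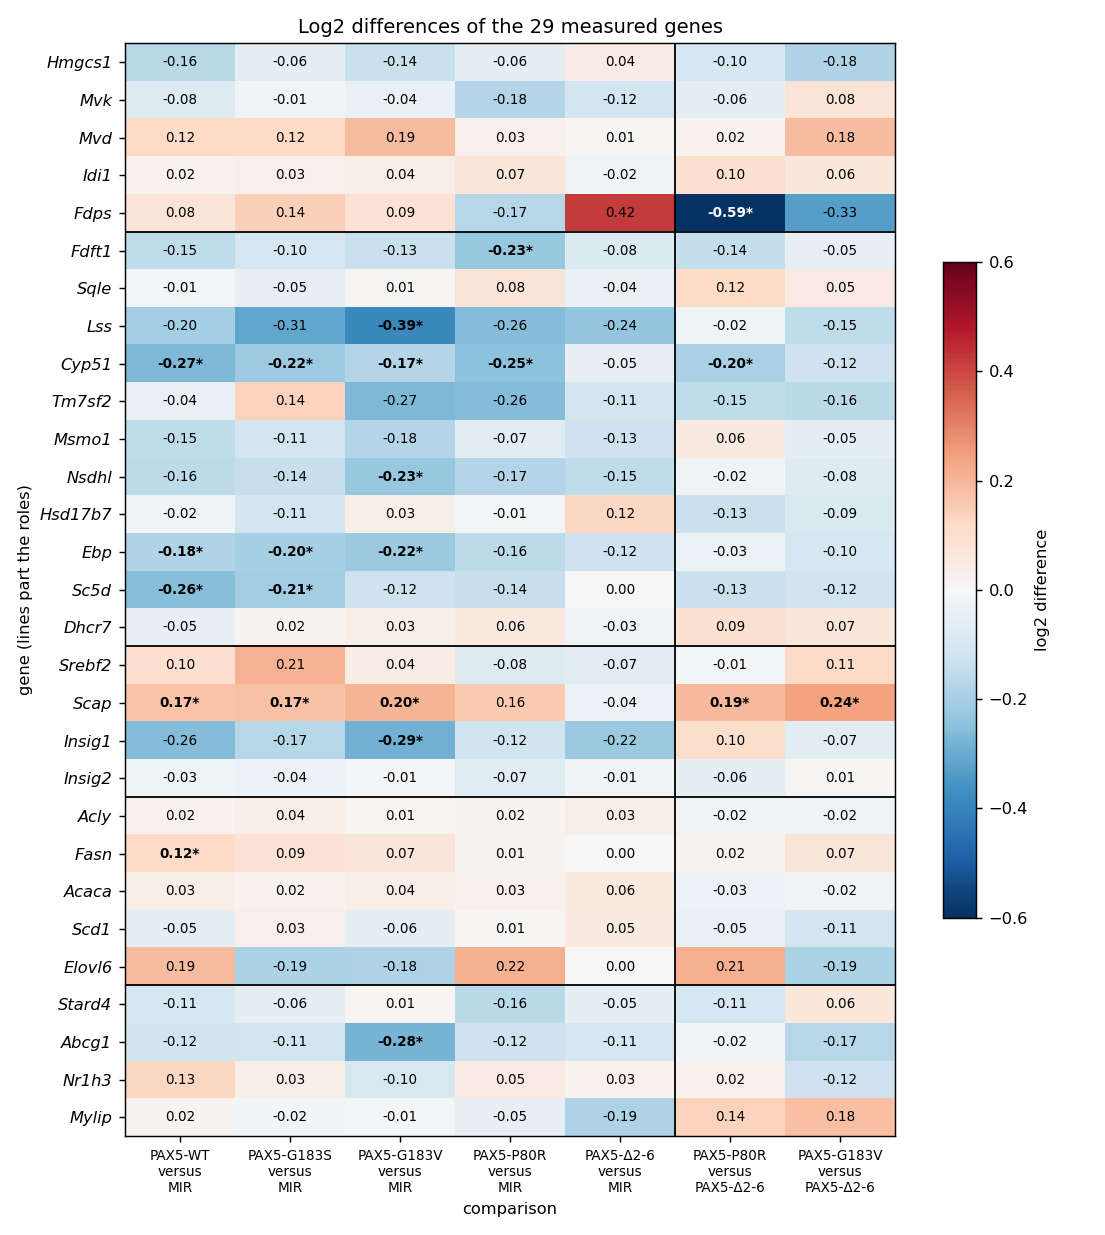
Log2 differences of the 29 measured genes in 7 comparisons, from the fit over 40 arrays; colour gives the size from -0.6 (blue) to 0.6 (red), and an asterisk and bold type mark a limma adjusted p under 0.05. The called falls lie mostly among the squalene and sterol enzymes in the first 4 columns, with no call in the column of PAX5-Δ2-6 versus MIR.

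PAX5-Δ2-6 and PAX5-WT differed directly in 3 of the 29 genes, 2 higher and 1 lower with PAX5-Δ2-6, where 2.81% of all genes were higher and 4.18% lower (6.99% either way). Cyp51 was higher by 0.22 ± 0.05 (limma adjusted p = 0.00321) and Sc5d by 0.25 ± 0.05 (limma adjusted p = 0.0018). Within isolation batches 1 and 2 Cyp51 differed by 0.26 and 0.17, and Sc5d by 0.19 and 0.33. With the mean of all probe sets Cyp51 differed by 0.08 and Sc5d by 0.06 and neither passed (limma adjusted p = 0.476 and 0.735). Cyp51 also did not pass with no batch terms (limma adjusted p = 0.373) or with a term for 3 series (0.155, limma adjusted p = 0.0664). The comparison crosses the transduction series, and with a term for 4 series 0 of the 29 genes were called, with Sc5d at 0.09, as were 0 with the replicate number as a block.

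Scap, the gene of the SREBP escort, went the other way from the sterol enzymes. It was at 9.09, 9.17 and 9.24 in PAX5-WT arrays and at 8.90, 8.98 and 9.08 in MIR arrays, so the groups did not overlap, as for 1.35% of all genes in that direction. Scap rose by 0.17 ± 0.05 with PAX5-WT (1.13-fold, limma adjusted p = 0.0152), with 0.17 within either isolation batch. Without MIR replicate 6 the adjusted p was 0.0502.

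In PAX5-G183S arrays Scap was at 9.12, 9.15 and 9.29, again above every MIR array, as for 1.26% of all genes. It rose by 0.17 ± 0.05 (limma adjusted p = 0.0129), and without PAX5-G183S replicate 1 the adjusted p was 0.0517. In PAX5-G183V arrays it was at 9.06, 9.20 and 9.41 and rose by 0.20 ± 0.05 (limma adjusted p = 0.00256), with 0.11 and 0.29 within isolation batches 1 and 2. In PAX5-P80R arrays it was at 9.08, 9.17 and 9.28 and differed from MIR by 0.16 ± 0.05 without passing (limma adjusted p = 0.0677).

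PAX5-Δ2-6 arrays had Scap at 8.94, 8.98 and 9.06, a difference from MIR of -0.04 ± 0.05 with an interval of -0.14 to 0.07. Every PAX5-Δ2-6 array lay below every PAX5-WT, PAX5-P80R and PAX5-G183V array, as for 1.78%, 1.22% and 1.78% of all genes in those directions. The highest PAX5-Δ2-6 array (9.0572) and the lowest PAX5-G183V array (9.0578) were almost equal. Scap was lower with PAX5-Δ2-6 than with PAX5-WT by 0.21 ± 0.05 (limma adjusted p = 0.00737). That call was lost with a term for 3 series (-0.16, limma adjusted p = 0.078) or 4 series (-0.11, 0.941) and with the block (0.18). Scap was higher with PAX5-P80R than with PAX5-Δ2-6 by 0.19 ± 0.05 (limma adjusted p = 0.0161), and higher with PAX5-G183V than with PAX5-Δ2-6 by 0.24 ± 0.05 (limma adjusted p = 0.0021). Both pairs of constructs span the same 2 runs of transduction numbers. Within isolation batch 1 alone neither difference passed (0.11 and 0.12, limma adjusted p = 0.62 and 0.517). Within batch 2 alone PAX5-G183V kept its call, and PAX5-P80R differed by 0.28 without passing (limma adjusted p = 0.0584). Without PAX5-P80R replicate 6 the adjusted p of PAX5-P80R against PAX5-Δ2-6 was 0.0544.

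Insig1, which holds SCAP in the endoplasmic reticulum and is itself an SREBP target, was at 8.31, 8.68 and 9.37 in PAX5-G183V arrays and at 8.84, 9.28 and 9.40 in MIR arrays. It fell by 0.29 ± 0.09 with PAX5-G183V (limma adjusted p = 0.0428), and 9 of 14 single arrays left out ended that call (highest adjusted p 0.125, without PAX5-G183V replicate 5). With a term for 4 series the difference turned to 0.0911 (limma adjusted p = 0.951), and with the replicate block the call was lost (0.117). The call was also lost with no batch terms (0.153). With PAX5-WT Insig1 was at 8.63, 8.80 and 9.34 and differed by -0.26 ± 0.09 without passing (limma adjusted p = 0.0954). Insig2 and Srebf2, which encodes the SREBP that drives sterol genes, were not called in any of the 11 comparisons. Srebf2 differences from MIR ran from -0.08 with PAX5-P80R to 0.21 with PAX5-G183S, and those of Insig2 from -0.07 to -0.01.

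Among the fatty acid enzymes Fasn, the synthase of palmitate, was at 10.38, 10.52 and 10.66 in PAX5-WT arrays and at 10.28, 10.43 and 10.51 in MIR arrays. It rose by 0.12 ± 0.03 with PAX5-WT (1.09-fold, limma adjusted p = 0.0276), with 0.14 and 0.10 within the batches. Leaving out single arrays ended the call for MIR replicates 1, 3, 4 and 7 and PAX5-WT replicates 1 and 6, with adjusted p up to 0.0718. With no batch terms the call was lost too (limma adjusted p = 0.414). Acly, which makes cytosolic acetyl-CoA, and Acaca, which makes malonyl-CoA, differed from MIR by 0.01 to 0.06 with every construct and were not called.

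Elovl6, which lengthens palmitate, is described after its values were seen. It was at 7.81, 8.47 and 8.63 in PAX5-G183S arrays, at 8.08, 8.27 and 8.64 in PAX5-G183V arrays and at 8.65, 8.68 and 8.92 in PAX5-WT arrays. MIR arrays had Elovl6 at 8.31, 8.54 and 8.69. Their mean (8.52) lay between that of PAX5-WT (8.71) and those of PAX5-G183S and PAX5-G183V (8.34 and 8.35). Elovl6 was called in no comparison with MIR. All arrays of both octapeptide mutants lay below all PAX5-WT arrays, as for 0.0936% of all genes with PAX5-G183S and 0.152% with PAX5-G183V. The differences from PAX5-WT were -0.38 ± 0.09 and -0.37 ± 0.09 and did not pass over all genes (limma adjusted p = 0.13 and 0.0697).

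The second Elovl6 probe set, with a mean of 8.39, differed from PAX5-WT by -0.41 ± 0.09 with PAX5-G183S and -0.36 ± 0.09 with PAX5-G183V, and a dim one, with a mean of 4.29, by -0.37 ± 0.08 and -0.44 ± 0.08. The dim probe set also differed by -0.43 ± 0.09 with PAX5-P80R and -0.44 ± 0.09 with PAX5-Δ2-6, unlike the brightest (0.03 ± 0.10 and -0.19 ± 0.10). With the mean of the 3 probe sets as the gene's value, the limma adjusted p was 0.0083 and 0.00654, and with a term for 3 series it was 0.0481 and 0.00263. It was 0.305 and 0.143 with the replicate block, 0.192 and 0.108 with no batch terms and 0.153 and 1.00 with 4 series. On plate 2 alone the differences were -0.15 and -0.39 (limma adjusted p = 0.819 and 0.419). Within isolation batches 1 and 2 the PAX5-G183S difference was -0.50 and -0.28, and the PAX5-G183V difference was -0.11 and -0.56. No other of the 29 genes had groups that did not overlap between these mutants and PAX5-WT. None of the 29 was called for PAX5-G183S against PAX5-WT (0.076% of all genes were), for PAX5-G183V against PAX5-WT (0.146%) or for PAX5-P80R against PAX5-WT (6.31%). At an unadjusted limma p under 0.05 there were 1, 6 and 2 of the 29, and 942, 1966 and 3257 of 17097 genes, in that order.

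Fdps, which makes farnesyl diphosphate, had the largest called difference of the 29 genes. Its values in the PAX5-P80R arrays were 7.97, 8.46 and 9.14 (lowest, median, highest) and in the PAX5-Δ2-6 arrays 8.71, 9.05 and 9.51. It was lower with PAX5-P80R by 0.59 ± 0.13 (1.51-fold, limma adjusted p = 0.00361), with -0.41 and -0.77 within isolation batches 1 and 2. With no batch terms it did not pass (limma adjusted p = 0.122). Against MIR, at 8.37, 8.82 and 9.17, Fdps differed by -0.17 ± 0.13 with PAX5-P80R and 0.42 ± 0.13 with PAX5-Δ2-6, and neither passed.

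Of the 29 genes 1 was higher and 2 were lower with PAX5-P80R than with PAX5-Δ2-6, where 1.95% of all genes were higher and 1.36% lower (3.3% either way). Cyp51 was the other lower gene, by 0.20 ± 0.05 (limma adjusted p = 0.013). It did not pass with the mean of all probe sets (0.163) or with no batch terms (0.607). Between PAX5-G183V and PAX5-Δ2-6 only Scap of the 29 was called, where 3.35% of all genes were higher and 1.64% lower (4.98% either way). Cyp51 differed there by -0.12 ± 0.05 and did not pass (limma adjusted p = 0.176).

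More of these genes differed between the RNA isolation batches than between any construct and MIR. This count was made after the values were seen. It does not rest on like numbers of arrays. The batch term contrasts all 40 arrays, while a construct is contrasted with MIR by 6 or 7 arrays against 7. Of the 29 genes 16 were lower and 1 was higher in isolation batch 2 than in batch 1 (58.6% called), where 8.7% of all genes were lower and 12.5% higher (21.2% either way). The median difference was -0.15 over the 29 genes and 0.00 over all genes. Of the 16 enzymes from mevalonate to sterol 10 were lower and 0 higher. The plate term called 1 of the 29 genes (Ebp, 0.18 on plate 2), where it called 2.91% of all genes.

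Fdps was lower in batch 2 by 0.47 ± 0.07, Insig1 by 0.42 ± 0.06, Stard4, a sterol carrier, by 0.39 ± 0.04, Cyp51 by 0.37 ± 0.03 and Sqle, the squalene epoxidase, by 0.25 ± 0.03, and each was lower in all 6 groups. Fasn, Scd1, the stearoyl-CoA desaturase, and Acly were lower by 0.19 ± 0.02, 0.22 ± 0.05 and 0.15 ± 0.02, also in all 6 groups. The remaining genes that were lower were Hmgcs1, Mvd, Idi1, Fdft1, Msmo1, Nsdhl, Sc5d and Srebf2, by 0.10 to 0.24. Abcg1, an exporter, was the 1 gene that was higher, by 0.15 ± 0.04, and it was higher in 5 of 6 groups.

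Stard4 shows the split group by group. It was at 7.02 to 7.21 in batch 2 and at 7.53 to 7.86 in batch 1 with PAX5-WT, and at 7.14 to 7.34 in batch 2 and 7.49 to 7.81 in batch 1 with PAX5-G183S. It was at 7.34 to 7.48 in batch 2 and 7.495 to 7.67 in batch 1 with PAX5-G183V, and at 7.01 to 7.25 in batch 2 and 7.39 to 7.55 in batch 1 with PAX5-P80R. With PAX5-Δ2-6 it was at 7.14 to 7.32 in batch 2 and 7.51 to 7.82 in batch 1, and with MIR at 7.18 to 7.39 in batch 2 and 7.70 to 7.76 in batch 1. The batches of a group did not overlap in any of the 6 groups, with the smallest gap for PAX5-G183V (7.475 against 7.495). The same held for Cyp51 in all 6 groups. The share of all genes with such a split was not counted.

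**Figure D3:**
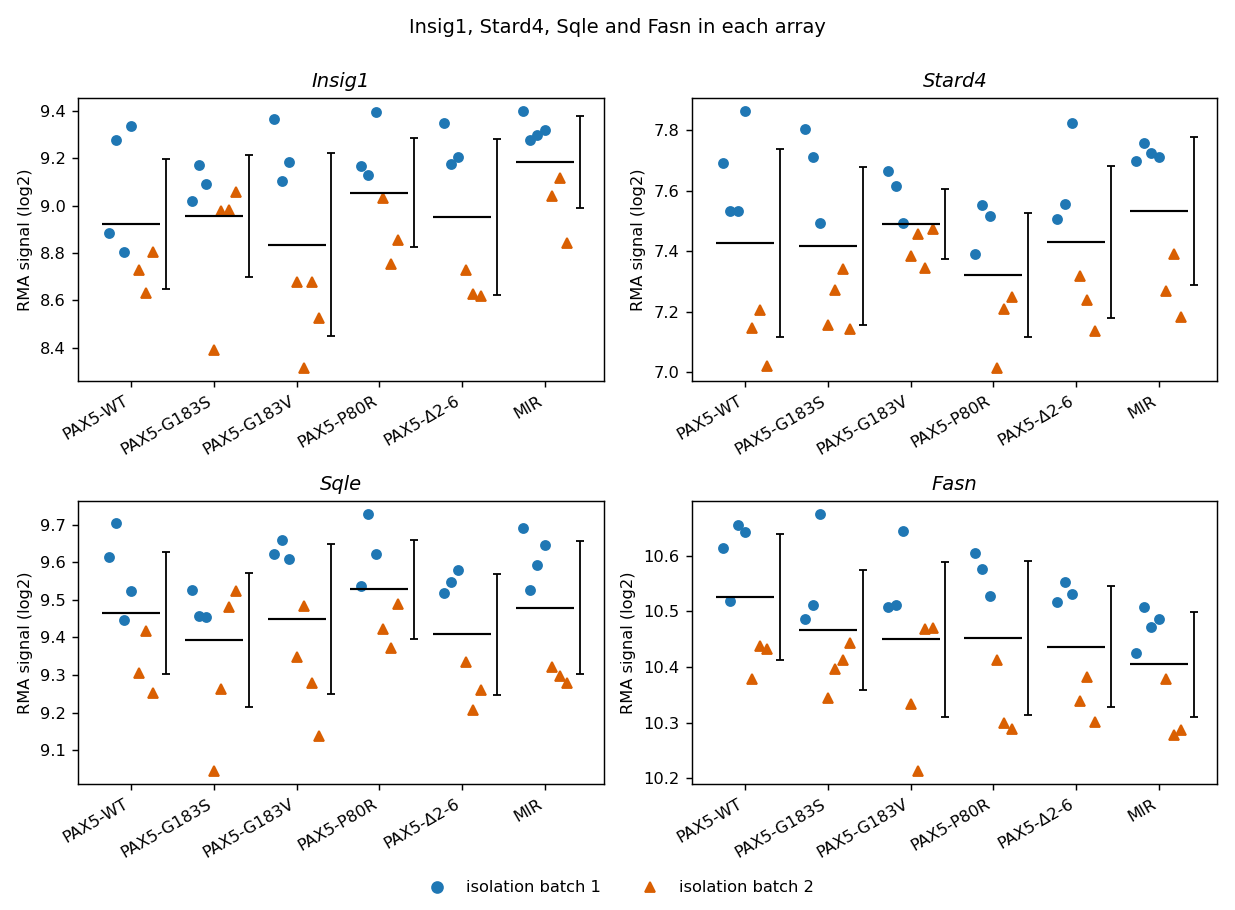
RMA signal (log2) of Insig1, Stard4, Sqle and Fasn in every array, by construct, with circles for isolation batch 1 and triangles for batch 2; lines are group means and bars are 1 SD (n = 6 or 7). Stard4 is lower in every batch 2 array than in every batch 1 array of the same construct.

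Isolation batch 2 holds the transductions numbered from 45 and batch 1 those numbered up to 44, so isolation and transduction cannot be told apart. Fitted on arrays of PAX5-P80R, PAX5-Δ2-6 and PAX5-G183V alone the batch called 14 of the 29 genes, all lower, where 13.3% of all genes were called. Fitted on MIR, PAX5-WT and PAX5-G183S arrays alone it called 13, of which 12 were lower, where 15.8% were called. Every construct had arrays in both batches, and the fit used for the differences between constructs holds a term for the batch. Within a batch the 2 sets of constructs still differ in transduction numbers, and PAX5-P80R and PAX5-Δ2-6 lie on plate 2 only.

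**Figure D4:**
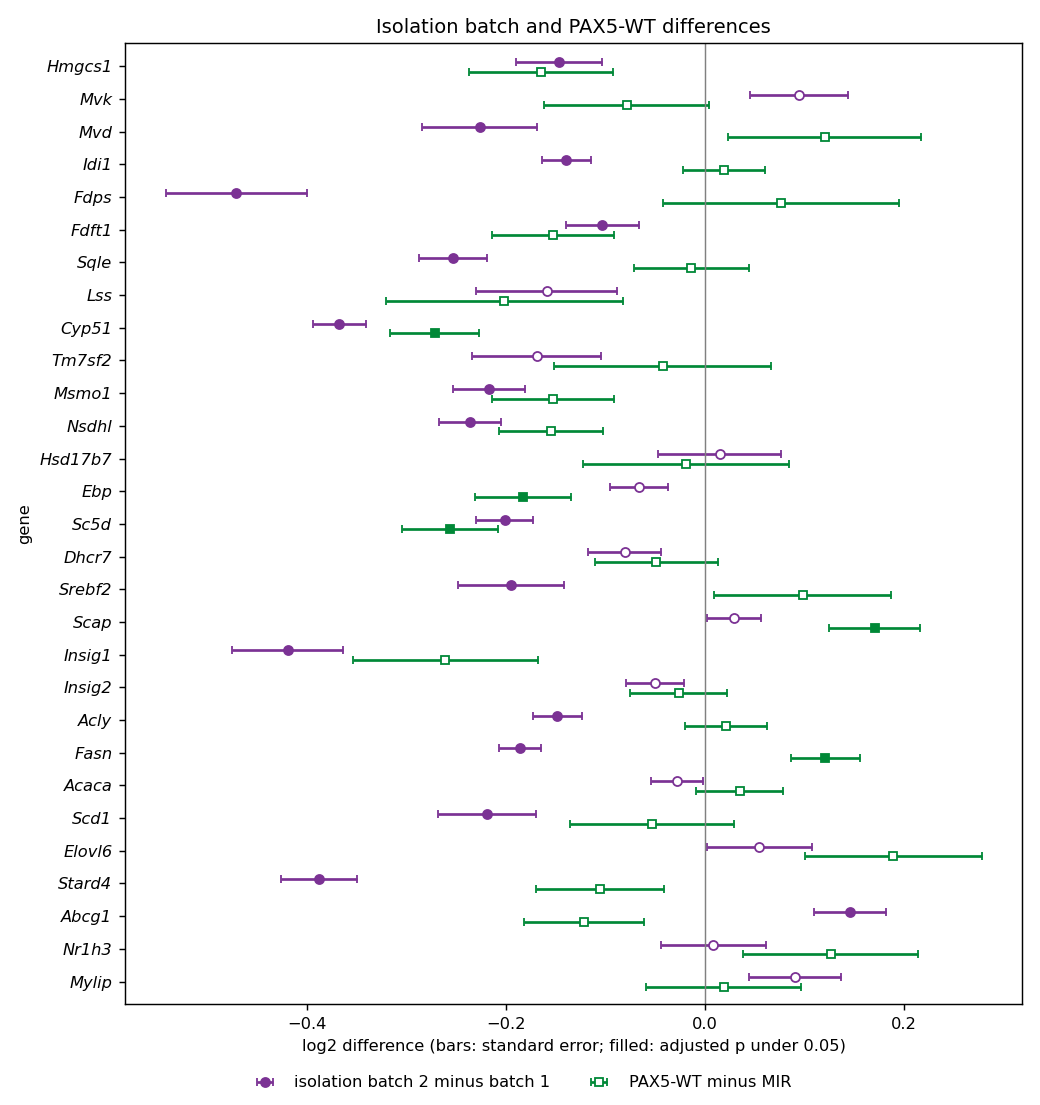
Log2 difference of isolation batch 2 minus batch 1 (circles) and of PAX5-WT minus MIR (squares) for the 29 genes, with bars of 1 standard error and filled symbols for a limma adjusted p under 0.05. Batch 2 lies below batch 1 for 16 called genes, while PAX5-WT lies below MIR for Cyp51, Ebp and Sc5d and above it for Scap and Fasn among called genes.

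Other genes of sterol and lipid handling were taken from a separate list of 46, of which 39 were measured. Relative to MIR 1 rose and 4 fell with PAX5-WT, 2 rose and 3 fell with PAX5-G183S, 2 rose and 3 fell with PAX5-G183V, 1 rose and 2 fell with PAX5-P80R, and 0 were called with PAX5-Δ2-6. Over all genes 6.43%, 6.12%, 9.28%, 4.72% and 0% were called in these comparisons. Elovl5, an elongase of polyunsaturated fatty acids, fell by 0.24 ± 0.04 with PAX5-WT (limma adjusted p = 0.000243), by 0.21 ± 0.04 with PAX5-G183S and by 0.21 ± 0.04 with PAX5-G183V. Me1, which makes NADPH for lipid synthesis, fell by 0.19 ± 0.05 with PAX5-WT, by 0.21 ± 0.05 with PAX5-G183S and by 0.31 ± 0.06 with PAX5-P80R (limma adjusted p = 0.0208, 0.0101 and 0.000704). With the mean of all probe sets Me1 did not pass with PAX5-WT or PAX5-G183S (0.0874 and 0.118), and with the replicate block it did not pass with PAX5-P80R (0.136). With a term for 4 series neither Elovl5 with PAX5-G183V nor Me1 with PAX5-P80R passed (limma adjusted p = 0.733 and 0.358).

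Npc1 and Lipa, both lysosomal, went in opposite directions with PAX5-P80R and with PAX5-WT. Npc1, which moves cholesterol out of lysosomes, was at 8.90 to 9.01 in isolation batch 1 and at 9.35 to 9.46 in batch 2 with PAX5-P80R. It was at 8.17 to 8.52 and 8.47 to 8.55 with PAX5-WT, and at 8.60 to 8.86 and 8.70 to 8.84 with MIR, in the same order of batches. Every PAX5-P80R array thus lay above every MIR array (as for 1.26% of all genes), and every PAX5-WT array below every MIR array (0.895%). Every PAX5-G183V array also lay below every MIR array (1.05%).

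Npc1 rose by 0.40 ± 0.08 with PAX5-P80R (1.32-fold, limma adjusted p = 0.000712) and fell by 0.35 ± 0.07 with PAX5-WT (limma adjusted p = 0.000603), 0.37 ± 0.07 with PAX5-G183S and 0.35 ± 0.07 with PAX5-G183V. PAX5-P80R exceeded PAX5-WT by 0.75 ± 0.08 (1.69-fold, limma adjusted p = 7.93e-09) and exceeded PAX5-Δ2-6 by 0.32 ± 0.07 (limma adjusted p = 0.00647). The PAX5-P80R difference from MIR was 0.22 within batch 1 and 0.60 within batch 2. With a term for 4 series that call and the one of PAX5-G183V were lost (limma adjusted p = 0.452 and 0.690).

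Lipa, the lysosomal lipase that frees cholesterol from its esters, ran opposite to Npc1. It was at 7.23 to 7.28 in batch 1 and 6.63 to 6.91 in batch 2 with PAX5-P80R, and at 7.05 to 7.53 and 7.03 to 7.31 with MIR. It fell by 0.38 ± 0.09 with PAX5-P80R (limma adjusted p = 0.00459), a call lost with no batch terms (-0.25, 0.253), with the replicate block (0.162), with the mean of all probe sets (-0.22, 0.174) and with 4 series (0.856). It rose by 0.29 ± 0.08 with PAX5-WT (limma adjusted p = 0.0142; 0.0533 without PAX5-WT replicate 5). With PAX5-G183S and PAX5-G183V it rose by 0.24 ± 0.08 each (limma adjusted p = 0.048 and 0.0371), calls that 11 and 9 of 14 single arrays left out ended (highest adjusted p 0.128 and 0.0907). Npc2, the partner of NPC1 in lysosomes, fell by 0.29 ± 0.07 with PAX5-G183V (limma adjusted p = 0.00767), with -0.10 and -0.48 within batches 1 and 2. With a term for 4 series Npc2 (-0.10, limma adjusted p = 0.919) and Lipa (0.34, 0.596) did not pass with PAX5-G183V. Tmem97, a sterol-regulated membrane protein that binds NPC1, was higher by 0.27 ± 0.06 both with PAX5-P80R and with PAX5-Δ2-6 than with PAX5-WT (limma adjusted p = 0.00275 and 0.00264). With the replicate block these were 0.14 and 0.13, and with 4 series 0.14 and 0.14, and none passed (limma adjusted p = 0.559, 0.547, 0.916 and 0.907).

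**Figure D5:**
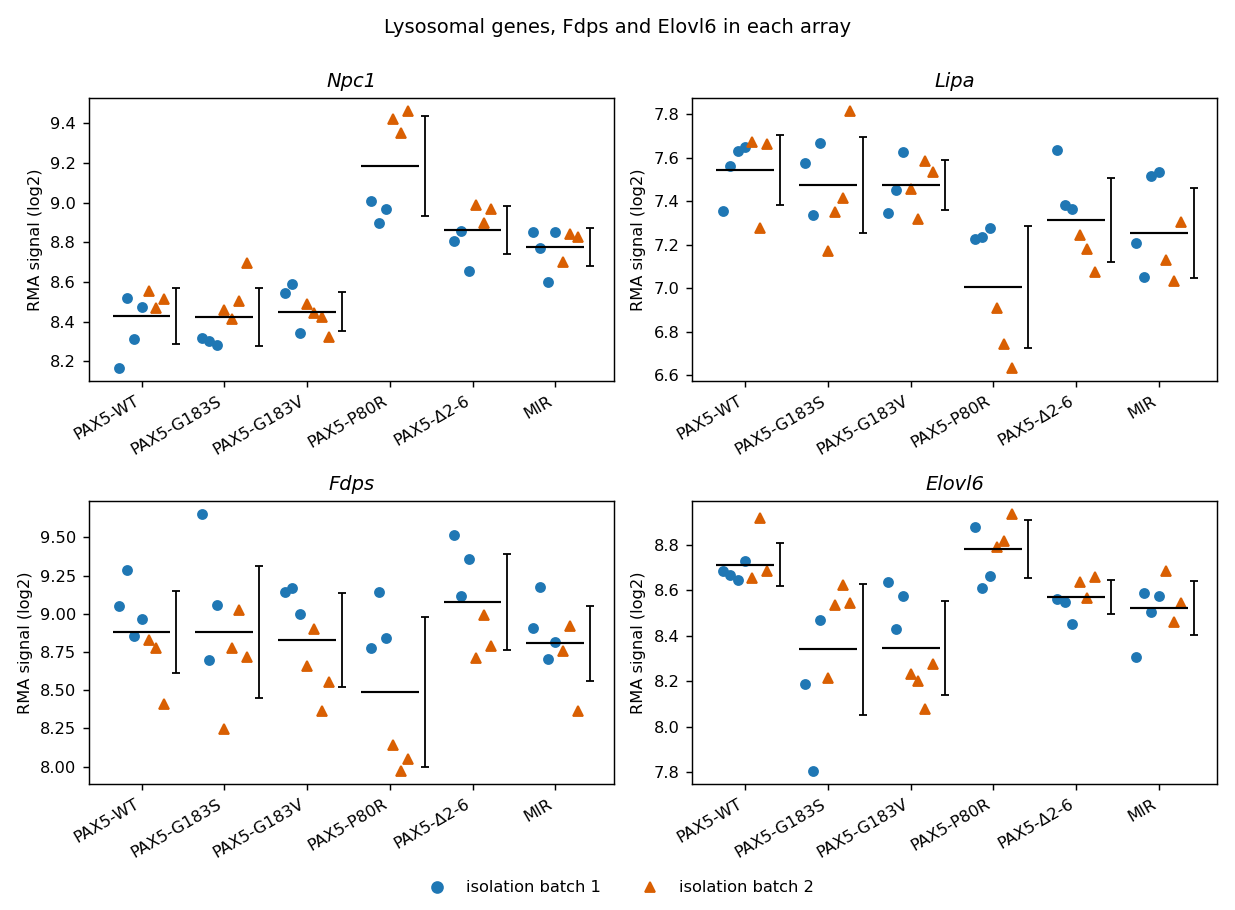
RMA signal (log2) of Npc1, Lipa, Fdps and Elovl6 in every array, by construct, with circles for isolation batch 1 and triangles for batch 2; lines are group means and bars are 1 SD (n = 6 or 7). Npc1 is highest and Lipa lowest in the PAX5-P80R arrays of batch 2, and Elovl6 lies lower in all PAX5-G183S and PAX5-G183V arrays than in any PAX5-WT array.

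Of 10 measured proliferation genes 2 fell with each of PAX5-WT, PAX5-G183S, PAX5-G183V and PAX5-P80R relative to MIR, and 0 with PAX5-Δ2-6, where 2.84%, 2.43%, 3.64%, 2.47% and 0% of all genes fell. Mki67 averaged 12.0 ± 0.14 in PAX5-WT arrays and 12.2 ± 0.08 in MIR arrays (SD, n = 7 each), a fall of 0.29 ± 0.06 (limma adjusted p = 0.00117). Of 7 plasma cell markers 3 fell with PAX5-WT, 3 with PAX5-G183S, 5 with PAX5-G183V and 0 with PAX5-P80R and PAX5-Δ2-6, against the same shares of all genes. Their part in the sterol gene differences was not tested. Of the 7 macrophage and 7 fibroblast markers 0 were called in any comparison with MIR. Among 7 B cell markers 1 rose with PAX5-G183S relative to MIR, where 3.69% of all genes rose, and 0 were called with the other constructs.

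The other 18 of the 29 genes were called in none of the 11 comparisons between constructs. In the mevalonate steps these were Hmgcs1, Mvk, Mvd and Idi1, and in the sterol steps Sqle, Tm7sf2, Msmo1, Hsd17b7 and Dhcr7. In control, fatty acid synthesis and transport they were Srebf2, Insig2, Acly, Acaca, Scd1, Elovl6, Stard4, Nr1h3, which encodes LXR alpha, and Mylip, the LXR-induced ligase that degrades lipoprotein receptors. Over the 11 comparisons 25 pairs of gene and comparison were called, and Cyp51 and Scap made up 12 of them.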

How the data were processed

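Total RNA of 40 transduced J558LuM cultures was hybridised to Affymetrix 3' arrays. Per the submitters' processing notes, RMA gave the deposited log2 signals. No version or setting of it is given in the sources used here, and RMA shrinks small signals and so their differences. Of 45141 probe sets 28898 name 1 gene in the platform annotation, 551 name several and 15692 are unnamed there. Each of 17097 genes was read from its brightest probe set on average.

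Differences were fitted with limma 3.58.1 (R 4.3.3) over all 40 arrays with terms for construct, plate and isolation batch, moderated with eBayes and adjusted by Benjamini-Hochberg over 17097 genes, and called at 0.05. The script was tested on simulated data. All 29 measured genes may be named; those called are given with values, as are up to 4 called genes of the other list per comparison with the largest differences. The members and lists were chosen with earlier results of these data known. Arrays limit precision by their number, 6 or 7 per group.

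Replicate numbers were checked as pairs. Same-numbered PAX5-WT and MIR arrays correlated at 0.160 to 0.278 in their deviations from group means in all 7 pairs, each pair within 1 isolation batch, and at -0.06 to 0.04 once the batch terms were fitted. With the replicate number as a block Cyp51, Ebp, Sc5d, Scap and Fasn kept their calls for PAX5-WT against MIR. Alternatives changed the batch terms, the arrays, the probe set rule, the normalization and the genes tested.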

Additional observations from a re-analysis of the deposited data

Results flagged for a closer look

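In 14 of 234 sets of 1 gene in 1 group the highest or lowest array stood apart from the others by Dixon's test, 9 of them among 174 sets of the 29 genes; chance gives about 1 set in 20. Low arrays were PAX5-P80R replicate 6 for Msmo1 (9.75), PAX5-WT replicate 3 for Hsd17b7 (6.80), PAX5-G183S replicate 7 for Hsd17b7 (6.30) and PAX5-G183S replicate 4 for Insig1 (8.39), the array that links the transduction series. High arrays were PAX5-G183S replicate 1 for Insig2 (9.08), PAX5-P80R replicate 3 for Insig2 (9.09), PAX5-WT replicate 2 for Scd1 (4.58), PAX5-WT replicate 6 for Elovl6 (8.92) and PAX5-G183V replicate 1 for Nr1h3 (4.36).

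Among the other lipid genes PAX5-WT replicate 6 was high for Mbtps1 (9.11) and low for Me1 (8.25), MIR replicate 2 was high for Mbtps1 (9.21), PAX5-G183V replicate 5 for Elovl5 (11.29) and MIR replicate 5 for Npc2 (9.89). Without PAX5-WT replicate 6 the fall of Me1 with PAX5-WT did not pass (limma adjusted p = 0.0749).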

How the results depend on the processing

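Counts are of the 29 genes called, with those of all 17097 genes in brackets. With no batch terms PAX5-WT against MIR had 2 (696), PAX5-G183S against MIR 1 (726) and PAX5-P80R against PAX5-Δ2-6 1 (337). In isolation batch 1 alone PAX5-G183S against MIR had 2 (646), PAX5-G183V against MIR 0 (302), PAX5-P80R against MIR 1 (156), PAX5-Δ2-6 against PAX5-WT 1 (588), and PAX5-P80R and PAX5-G183V against PAX5-Δ2-6 0 each (92 and 200). In batch 2 alone PAX5-WT, PAX5-G183S and PAX5-P80R against MIR had 0 (229, 319 and 673), PAX5-G183V against PAX5-WT 2 (274), PAX5-Δ2-6 against PAX5-WT 1 (706), PAX5-P80R against PAX5-Δ2-6 1 (467) and PAX5-G183V against PAX5-Δ2-6 2 (545). On plate 2 alone PAX5-WT, PAX5-G183S, PAX5-G183V and PAX5-P80R against MIR and PAX5-Δ2-6 against PAX5-WT had 0 (225, 153, 211, 198 and 589). These subsets hold fewer arrays.

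With 3 transduction series as a term PAX5-G183V against MIR had 11 (2420), PAX5-P80R 7 (1714) and PAX5-Δ2-6 2 (677), and against PAX5-WT PAX5-G183S had 1 (17), PAX5-G183V 4 (1009) and PAX5-P80R 1 (1643). With 4 series, a term chosen after seeing the data, PAX5-G183V and PAX5-P80R against MIR and PAX5-Δ2-6 against PAX5-WT had 0 (123, 70 and 58), PAX5-G183V against PAX5-Δ2-6 had 2 (1038), and Insig1 with PAX5-G183V reversed to 0.0911 against MIR (limma adjusted p = 0.951). The cause was not tested. With the replicate number as a block PAX5-P80R against MIR and PAX5-Δ2-6 against PAX5-WT had 0 (173 and 379).

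With the mean of all probe sets PAX5-WT against MIR had 3 (1016), PAX5-G183S against MIR 2 (976), and PAX5-G183S and PAX5-G183V against PAX5-WT 1 each (14 and 32). With only genes above the median PAX5-P80R against MIR had 5 (1123), and PAX5-G183V and PAX5-P80R against PAX5-WT 1 each (52 and 1395), with fewer genes tested. Quantile normalization moved no count by over 1.5 times. Leaving out 1 array gave 1 to 3 for PAX5-P80R against MIR and 0 to 1 for PAX5-G183V against PAX5-WT. The isolation batch count was 11 (1434, or 8.39% of all genes) on plate 1 alone and 13 (1962, or 11.5%) on plate 2 alone. Another background correction was not run, since the values are already RMA signals.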
